A study of Mus musculus with 11 samples.

Results

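Messages of 27 Ube2 genes and 37 Usp genes, 64 of the 14351 named genes on the arrays, were compared between wild-type mouse lung and lung lacking both 4E-BP1 and 4E-BP2. The Ube2 genes are those whose symbol starts with Ube2, the ubiquitin-conjugating enzymes, without the interferon-induced Ube2l6. The Usp genes are those named Usp and a number, the ubiquitin-specific proteases, without Usp2 and the interferon-induced Usp18. The rule uses gene names alone. A gene was tested where its log2 value reached 5 on at least 2 of the 11 arrays, which 24 Ube2 genes and 23 Usp genes did. The names Ube2v1, Ube2h, Ube2j2, Ube2w, Usp24, Usp32, Usp34, Usp36, Usp44, Usp48 and Usp51 had no matched probe set and were not analysed here.

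All mice were Balb/c and were fed the purified diet AIN-93M from 5 weeks of age. Wild-type (WT) mice were bought from a commercial breeder, while the 4ebp1-/-/4ebp2-/- (knockout) mice came from another laboratory, so genotype and origin cannot be told apart. Total lung RNA was hybridised on 3 wild-type and 3 knockout arrays, and RNA of the heavy polysomes on 2 wild-type and 3 knockout arrays. Heavy polysomes are gradient fractions 7 to 10, holding messages with 3 or more ribosomes. Whether each array stands for its own mouse is not stated in the labels, so the spread behind every p-value is that of these arrays and may be technical. The deposited log2 values are relative to the other messages on the same array. A difference between polysomal and total RNA is therefore a difference in relative level, not a count of ribosomes.

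Ubiquitin is passed from an activating enzyme (E1) to a conjugating enzyme (E2) and from there, with the help of a ligase (E3), to a target protein. The E2 often decides which kind of chain is built. Ubiquitin-specific proteases are the largest family of deubiquitinases and cut ubiquitin off targets or take chains apart. The proteins 4E-BP1 and 4E-BP2 are repressors of translation that keep eIF4E, which recognises the cap of a message, from recruiting ribosomes.

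Depth is not defined for arrays, and their number limits the precision. All 6 lung epithelium markers were tested, and their mean log2 value was 13.62 to 13.91 on the wild-type total arrays and 14.19 to 14.23 on the knockout total arrays. The 12378 dim probe sets that were not tested had a median, taken here as the floor, of between 2.30 and 2.49 on every array. It was 2.43 to 2.49 on wild-type total and 2.34 to 2.39 on knockout total arrays. On polysomal arrays it was 2.33 to 2.35 in wild type and 2.30 to 2.32 in knockout. Of the 6 endothelial markers, 4 were higher in knockout total RNA and 0 in knockout polysomal RNA, against 17.2% and 8.36% of all genes (limma, adjusted p below 0.05). Of 4 tested alveolar macrophage markers 3 were lower in each RNA kind, against 5.97% of all genes in total and 6.77% in polysomal RNA. The fourth marker in total RNA, Itgax, was higher there (0.54, adjusted p = 0.011) and lower in polysomal RNA (-0.59, adjusted p = 0.017). In RNA of whole lung, fewer cells of a type and less RNA per cell cannot be told apart, and the part of these markers in the results below was not tested.

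Promoters of 50 members were listed in RefSeq (GRCm38.p6), 37 of them of tested members, as 250 bases before to 50 bases after a gene's start. The 4 below are shown because their genes differed between polysomal and total RNA in opposite directions, lower on polysomes for the first pair and higher for the second. Capitals mark the letters of the motifs searched on both strands. These were the GC box with the letters GGGCGG, the CCAAT box, the TATA box with the letters TATAAA, an ETS site with the letters CCGGAAGT and an E-box with the letters CACGTG.
Ube2n promoter, chr10:95514912-95515211, plus strand: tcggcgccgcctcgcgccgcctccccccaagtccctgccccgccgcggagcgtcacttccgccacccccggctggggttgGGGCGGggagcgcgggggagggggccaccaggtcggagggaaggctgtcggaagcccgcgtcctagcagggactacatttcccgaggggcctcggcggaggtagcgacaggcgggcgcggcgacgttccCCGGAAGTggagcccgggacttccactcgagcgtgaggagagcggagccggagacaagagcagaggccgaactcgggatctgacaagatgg
Ube2g1 promoter, chr11:72607011-72607310, plus strand: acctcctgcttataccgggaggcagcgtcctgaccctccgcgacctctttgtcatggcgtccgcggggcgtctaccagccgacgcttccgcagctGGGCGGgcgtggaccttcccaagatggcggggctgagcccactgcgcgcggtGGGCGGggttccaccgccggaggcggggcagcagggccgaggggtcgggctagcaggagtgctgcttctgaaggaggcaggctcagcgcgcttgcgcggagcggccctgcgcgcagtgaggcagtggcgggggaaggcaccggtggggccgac
Usp4 promoter, chr9:108347581-108347880, plus strand: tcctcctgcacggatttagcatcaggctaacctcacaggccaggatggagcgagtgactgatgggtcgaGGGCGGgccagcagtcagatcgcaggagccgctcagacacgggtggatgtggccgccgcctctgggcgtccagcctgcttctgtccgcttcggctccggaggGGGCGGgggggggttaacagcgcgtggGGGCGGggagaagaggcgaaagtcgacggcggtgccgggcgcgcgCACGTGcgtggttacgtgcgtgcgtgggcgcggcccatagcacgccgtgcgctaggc
Usp11 promoter, chrX:20703659-20703958, plus strand: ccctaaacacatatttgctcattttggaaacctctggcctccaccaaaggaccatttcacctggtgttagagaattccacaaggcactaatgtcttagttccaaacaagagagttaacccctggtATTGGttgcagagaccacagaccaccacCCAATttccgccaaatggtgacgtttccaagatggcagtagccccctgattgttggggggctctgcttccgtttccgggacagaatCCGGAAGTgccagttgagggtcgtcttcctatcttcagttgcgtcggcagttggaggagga
The shares below are of promoters of tested members, 28 from 19 Ube2 genes and 18 from 18 Usp genes. They stand beside all 32851 promoters listed, from 27025 genes whether tested or not, so family and expression in lung cannot be told apart. The letters GGGCGG occurred in 82.1% of Ube2 promoters and 66.7% of Usp promoters, against 35.7% of all. CCGGAAGT occurred in 10.7% of Ube2 promoters (3 of 28) and 22.2% of Usp promoters (4 of 18), against 3.89% of all. CCAAT was found in 17.9% and 22.2%, against 37.4% of all. TATAAA was found in 7.14% of Ube2 and 11.1% of Usp promoters, against 13.6% of all. CACGTG was found in 7.14% and 11.1%, against 7.15% of all. A start of a C followed by 4 pyrimidines on the sense strand, the letters that open messages of ribosomal proteins, was found in 0 promoters of either family and in 2.51% of all. The motifs were chosen after the promoters had been read, and several promoters of 1 gene can share bases. These shares describe the letters of the windows.

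Polysomal and total RNA of wild-type lung were compared first. Most Ube2 messages were relatively low on heavy polysomes, while Usp messages were spread to both sides. Of 24 tested Ube2 genes, 18 passed the test (75%, against 72.4% of all 8085 tested genes), 3 higher and 15 lower on polysomes. The 3 higher were Ube2m, Ube2z and Ube2o, and Ube2o reached the filter of 5 on knockout polysomal arrays alone. The 15 lower include Ube2t, which reached that filter on total arrays alone. Lower calls made up 62.5% of the Ube2 genes, 30.4% of the Usp genes and 27.9% of all genes. Higher calls made up 12.5%, 34.8% and 44.5%. The median difference was -0.41 log2 units for Ube2 genes and -0.03 for the 23 Usp genes, against 0.22 for all genes. The difference between the families was not tested.

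**Figure D1:**
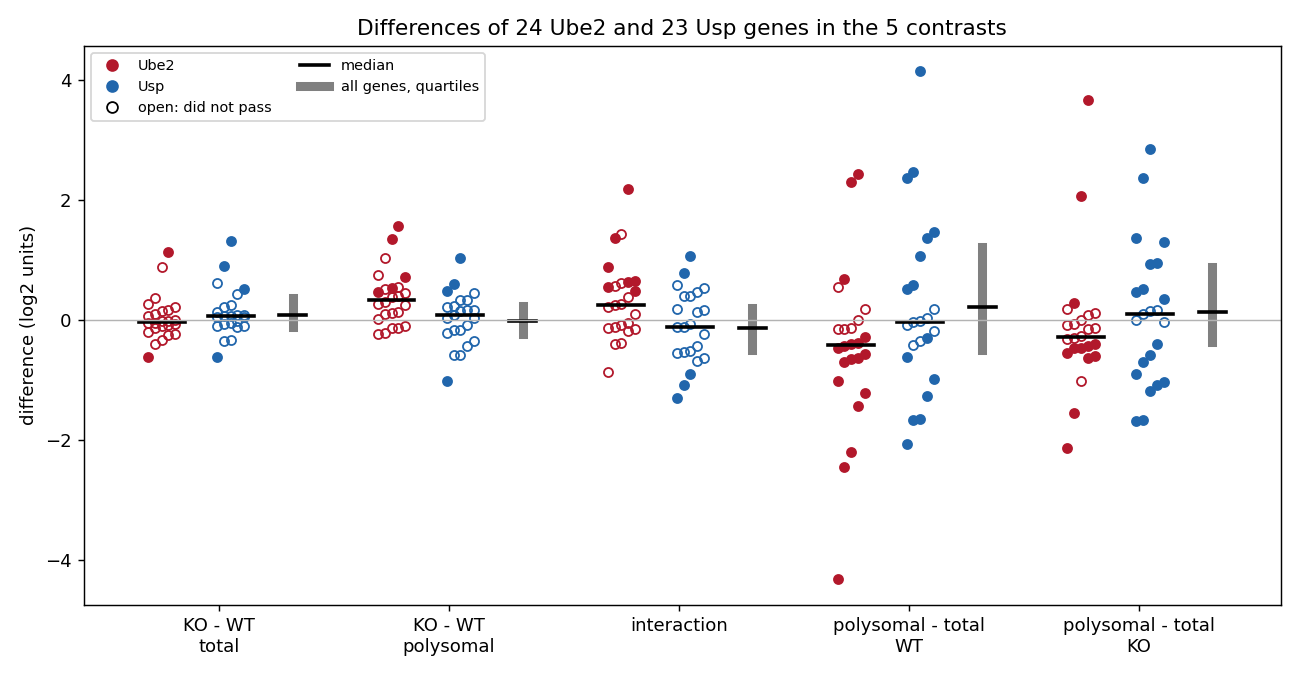
Each point is the difference of 1 gene in log2 units in 1 of 5 contrasts, with Ube2 genes in red and Usp genes in blue; filled points passed the test (limma, adjusted p below 0.05) and open points did not. Black lines are medians and grey bars run from the lower to the upper quartile of all 8085 tested genes; the Ube2 median lies at 0.34 in the polysomal contrast and at -0.41 in wild-type polysomal minus total RNA.

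The pair that builds K63 chains, a linkage known more for signalling than for degradation, was low on wild-type polysomes. Ube2v2 encodes a partner without catalytic activity that steers its bound E2, Ube2n, to this linkage, and the pair serves DNA damage tolerance. Ube2v2 read 8.65, 8.54 and 8.50 log2 on the wild-type total arrays and 4.18 and 4.32 on the wild-type polysomal arrays. The groups lay far apart, and the polysomal values were under the filter of 5 but above the floor. Its difference was -4.32 (SE 0.10, n = 2 and 3, limma adjusted p = 5.6e-09), a level 19.9-fold lower on polysomes and the lowest of the 47 tested members. Ube2n read 8.44, 8.04 and 8.08 in total RNA and 6.78 and 6.72 on polysomes. That difference was -1.43 (SE 0.17, adjusted p = 3.1e-05).

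The general ubiquitin E2s, which work with many ligases, had 6 of their 8 tested members lower and 0 higher on wild-type polysomes, where 27.9% of all genes were lower and 44.5% higher. Ube2d2a read 12.02, 11.94 and 11.88 in total RNA and 9.72 and 9.76 on polysomes, so every polysomal array was below every total array. It differed by -2.20 (SE 0.13, adjusted p = 3.6e-07). Its near relative Ube2d3 differed by -1.02 (SE 0.10) and Ube2d1 by -0.44 (SE 0.17). Without either wild-type polysomal array the call on Ube2d1 was lost, with values of -0.339 and -0.535, and it was lost in 6 of 11 fits that left out 1 array. Whether probes of one Ube2d gene also catch its near-identical relatives was not tested. Ube2e1 (-0.64), Ube2e2 (-0.56) and Ube2k (-0.39) were lower too. The call on Ube2k was lost without the first wild-type polysomal array, with a value of -0.262. Ube2l3, which serves HECT and RING-between-RING ligases, differed by -0.15 (adjusted p = 0.27), and Ube2e3 by 0.01.

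Ube2r2, a partner of cullin ligases, read 8.98, 8.92 and 9.42 in total RNA and 7.90 and 7.89 on polysomes, a difference of -1.21 (SE 0.16, limma adjusted p = 9e-05). Ube2g1, used both in degradation from the endoplasmic reticulum and by cullin ligases, fell from 11.88 to 12.07 in total RNA to 11.44 and 11.31 on polysomes. Its difference was -0.63 (SE 0.11). Ube2j1, a membrane-anchored E2 of the same degradation route, differed by -0.47 and Ube2g2 by 0.19 (adjusted p = 0.16). Without the first wild-type polysomal array the value of Ube2j1 was -0.301 and its call was lost. Of the Rad6 homologues, which modify histone H2B and the replication clamp PCNA, Ube2b differed by -0.70 (SE 0.13, adjusted p = 8.6e-04) and Ube2a by -0.12 (adjusted p = 0.33). Ube2q2 differed by -2.45 (SE 0.50), but its polysomal arrays read 4.24 and 6.38, so its size depends on 1 array: the value was -3.52 with the first alone and -1.38 with the second alone.

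A few E2 messages were relatively high on polysomes. Ube2m, which passes the ubiquitin-like protein NEDD8 to cullins, read 5.23, 5.25 and 4.17 in wild-type total RNA and 7.78 and 6.88 on polysomes. The difference was 2.45 (SE 0.34, adjusted p = 9.5e-05), while the other NEDD8 enzyme, Ube2f, differed by -0.38 (SE 0.11). The call on Ube2f was lost without the second wild-type polysomal array. Ube2z, an E2 charged by the activating enzyme Uba6, differed by 0.69 (SE 0.10). Ube2o, a large enzyme that joins E2 and E3 activity and is known from maturing red cells, read 2.33, 2.33 and 2.40 in total RNA, at the floor, and 4.34 and 5.00 on polysomes. It passed (adjusted p = 3.4e-05), but its total level has only an upper bound, so no fold is given. Ube2s, which extends chains for the anaphase-promoting complex, differed by 0.56 (SE 0.42, adjusted p = 0.25). Ube2t, the E2 of the Fanconi anaemia pathway, differed by -0.28 (SE 0.11) with an adjusted p of 0.05. It reached the filter of 5 on 3 arrays, all of total RNA. It thus entered the test through the RNA kind where it was high, and the result is given as a description. Its call was lost in 8 of the 11 fits without 1 array, and its values over all 11 ran from -0.40 to -0.16.

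Usp messages went both ways in wild-type lung, with 15 of 23 passing (65.2%, against 72.4% of all genes), 8 higher and 7 lower. Usp5, which takes apart free ubiquitin chains, read 5.32, 4.54 and 5.08 in total RNA and 9.24 and 9.03 on polysomes. This difference of 4.15 (SE 0.19, n = 2 and 3, limma adjusted p = 1e-07) made its relative level 17.8-fold higher on polysomes, and it was the highest of the tested members. Usp7, the protease of the p53 ligase Mdm2, read 5.44, 5.36 and 4.88 in total RNA and 7.66 and 7.74 on polysomes, a difference of 2.47 (SE 0.25). Usp10, which can also act on p53, differed by 0.53 (SE 0.15). Without the second wild-type polysomal array the value of Usp10 was 0.27 and its call was lost.

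The paralogues Usp4, Usp11 and Usp15, which share a DUSP and ubiquitin-like domains, were all higher on wild-type polysomes. Usp4 read 8.88, 8.76 and 8.60 in total RNA and 10.95 and 11.29 on polysomes. Its difference was 2.38 (SE 0.13, adjusted p = 1.9e-07). Usp11 differed by 1.37 (SE 0.18) and Usp15 by 0.58 (SE 0.16). Leaving out the first wild-type polysomal array gave 0.35 for Usp15, and the call was lost. Usp8, which acts on receptors at endosomes, was higher by 1.48 (SE 0.22), and Usp19 by 1.07 (SE 0.15).

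The Usp messages low on polysomes included both tested partners of the activator Wdr48. Usp46 read 11.27, 11.31 and 11.23 in wild-type total RNA and 9.21 on both polysomal arrays, a difference of -2.06 (SE 0.10, adjusted p = 1.5e-07). Usp1, which removes ubiquitin from FANCD2 and PCNA, differed by -0.30 (SE 0.11, adjusted p = 0.027). Its call was lost without any of 4 arrays, the first and second wild-type total and both wild-type polysomal arrays. Its values over all 11 fits without 1 array ran from -0.37 to -0.23. Of the proteases of histone H2A, Usp16 differed by -1.65 (SE 0.18) and Usp3 by -0.98 (SE 0.13), and Usp21 by -0.41 (adjusted p = 0.051). Usp45 differed by -1.66 (SE 0.12), and Usp30, which sits in the outer mitochondrial membrane, by -1.26 (SE 0.14). Usp33 differed by -0.62 (SE 0.20), a call lost without the first or second wild-type total array or the first wild-type polysomal array (highest adjusted p = 0.12). The proteasome's Usp14 differed by 0.19 (adjusted p = 0.24) and the spliceosome's Usp39, which lacks protease activity, by -0.17 (adjusted p = 0.19).

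The same comparison in knockout lung used 3 arrays of each RNA kind. Of the Ube2 genes, 12 of 24 passed (50.0%, against 65.2% of all genes), 3 higher and 9 lower. The 3 higher were again Ube2m, Ube2z and Ube2o, of which Ube2o entered the test only through these knockout polysomal arrays. Ube2z differed by 0.29 (limma adjusted p = 0.014), and its call was lost without the first knockout total array. It was also lost under quantile normalization and under equal medians of the tested probe sets. The 9 lower include Ube2t, which entered it only through total arrays. Of the Usp genes, 18 of 23 passed (78.3%), 9 in each direction. Higher calls made up 12.5% of Ube2 and 39.1% of Usp genes, against 39.5% of all. Lower calls made up 37.5% of Ube2 and 39.1% of Usp genes, against 25.7% of all. The medians were -0.28 for Ube2 genes, 0.10 for Usp genes and 0.13 for all genes. Quantile normalization gave 2 higher and 13 lower Ube2 genes.

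**Figure D2:**
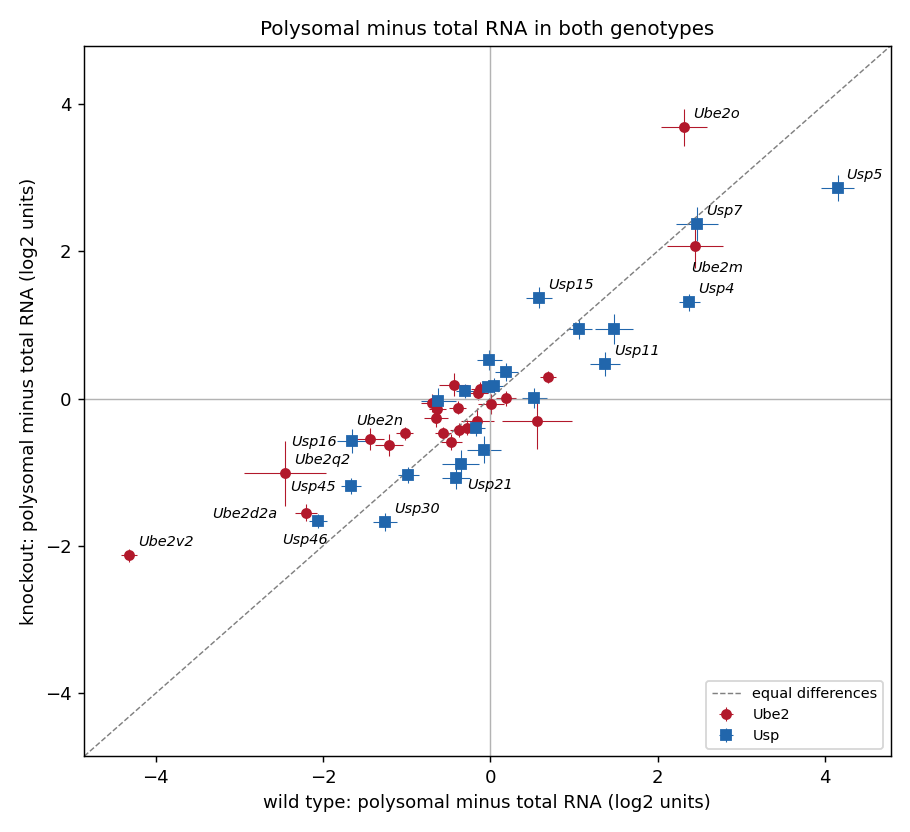
Polysomal minus total RNA in log2 units is plotted for each tested gene, with wild type on the horizontal and knockout on the vertical axis; bars are 1 SE of the limma fit. Ube2v2 lies at -4.32 and -2.13, above the dashed line of equal differences, and Usp5 at 4.15 and 2.86, below it.

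Ube2v2 read 7.95, 8.03 and 7.86 in knockout total RNA and 5.90, 5.77 and 5.79 on knockout polysomes. It was still lower on polysomes, by -2.13 (SE 0.09, limma adjusted p = 1.2e-07) or 4.37-fold, against 19.9-fold in wild type. Ube2n differed by -0.55 (SE 0.15, adjusted p = 0.009), Ube2d2a by -1.55 (SE 0.12) and Ube2d3 by -0.47 (SE 0.09). Ube2b, at -0.06 (adjusted p = 0.66), and Ube2g1, at -0.14 (adjusted p = 0.21), did not pass in knockout. Ube2q2 did not pass either, at -1.01 (adjusted p = 0.070). The relative level of Ube2m was higher on polysomes by 2.07 (SE 0.30).

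Usp5 read 6.19, 6.4 and 6.34 in knockout total RNA and 9.14, 9.25 and 9.11 on polysomes, a difference of 2.86 (SE 0.17) and a level 7.25-fold higher. Usp4 differed by 1.30 (SE 0.11) and Usp7 by 2.37 (SE 0.23). Usp15 was higher by 1.37 (SE 0.14) and Usp25 by 0.53 (SE 0.13). Lower Usp messages included Usp30 (-1.68), Usp46 (-1.66), Usp45 (-1.19), Usp21 (-1.08), Usp3 (-1.04) and Usp28 (-0.89). Usp14 passed in knockout at 0.36 (SE 0.13, adjusted p = 0.029), a call lost without the first knockout total or the second knockout polysomal array. Without the second polysomal array its value was 0.25. Usp11 passed at 0.47 (SE 0.16, adjusted p = 0.025) and lost its call without the first or the third knockout total or the third knockout polysomal array (lowest value 0.31).

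The 2 genotypes shared no array in these comparisons. Across genes, wild-type and knockout differences correlated with r = 0.878 over 24 Ube2 genes, 0.912 over 23 Usp genes and 0.927 over all 8085 genes. Genes within a family share arrays and are not replicates, so these values are a description. The absolute difference was smaller in knockout for 18 of 24 Ube2 genes (75%) and 12 of 23 Usp genes (52.2%), against 72.2% of all genes. Its median moved from 0.60 to 0.35 for Ube2 genes and from 0.62 to 0.89 for Usp genes, against 0.87 to 0.63 for all genes.

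Total RNA was compared between genotypes to see which messages differed in amount. Of the Ube2 genes, 2 of 24 passed (8.33%, against 23.2% of all genes), 1 higher and 1 lower in knockout. Of the Usp genes, 4 of 23 passed (17.4%), 3 higher and 1 lower. Among all genes, 17.2% were higher and 5.97% lower. The medians were -0.02 for Ube2, 0.07 for Usp and 0.09 for all genes. Quantile normalization gave 1 higher and 2 lower Ube2 genes and 2 Usp genes in each direction, and it moved the share of higher calls among all called genes from 74.3% to 60.6%. Equal medians of the tested probe sets gave 1 higher and 3 lower Ube2 genes, 2 Usp genes in each direction and a share of 55.2% among all genes. The Ube2 count was 1 without the first or the third knockout total array, and the Usp count 2 without the first knockout, the second knockout or the first wild-type total array.

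Ube2v2 was lower on each knockout total array (7.95, 8.03 and 7.86) than on any wild-type one (8.65, 8.54 and 8.50). The fall of 0.61 log2 units had an SE of 0.09 (n = 3 and 3, limma adjusted p = 0.002). Ube2m read 5.98, 6.15 and 5.94 in knockout against 5.23, 5.25 and 4.17 in wild type, and the third wild-type array stood well below the other two. It rose by 1.14 (SE 0.30, adjusted p = 0.024), 2.20-fold, and the call was lost without any single knockout total array (highest adjusted p = 0.083). Ube2s differed by 0.88 (SE 0.37, adjusted p = 0.12) and Ube2n by -0.34 (SE 0.15, adjusted p = 0.13).

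Usp5 and Usp4 had the largest increases among Usp genes. Usp5 rose by 1.33 (SE 0.17, limma adjusted p = 0.0015), 2.51-fold, from 4.54 to 5.32 on wild-type arrays to 6.19 to 6.4 on knockout arrays. Usp4 read 9.58, 9.77 and 9.61 in knockout against 8.88, 8.76 and 8.60 in wild type. It rose by 0.91 (SE 0.11, adjusted p = 0.0011), 1.88-fold. For both genes every knockout array was above every wild-type array, and the calls held in all 11 fits that left out 1 array.

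Usp16 read 9.27, 9.16 and 9.22 in knockout total RNA and 9.99, 10.10 and 9.42 in wild type, a fall of 0.62 (SE 0.16, adjusted p = 0.024). Its call was lost without any knockout array or without the first or second wild-type array, with a value of -0.49 at its smallest. Usp21 rose by 0.52 (SE 0.15, adjusted p = 0.034), but its lowest knockout and highest wild-type arrays both read 8.28, and the call was lost without 4 of the arrays (highest adjusted p = 0.13). These were the first and second knockout and the first and the third wild-type total arrays. Usp21 also lost its call under quantile normalization and under equal medians of the tested probe sets. Usp8, at 0.62 (SE 0.20), and Usp45, at -0.32 (SE 0.10), both had an adjusted p of 0.0505. Usp7 differed by 0.45 (SE 0.23, adjusted p = 0.18).

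In polysomal RNA more Ube2 messages were higher in knockout. Of 24 genes, 5 passed (20.8%, against 15.1% of all genes), all 5 of them higher, where higher calls made up 8.36% of all genes. One of the 5, Ube2o, entered the test only through its knockout polysomal arrays, and 4 were higher without it. Of the Usp genes, 4 of 23 passed (17.4%), 3 higher and 1 lower, beside 6.77% lower calls among all genes. The median was 0.34 for Ube2 genes, 0.08 for Usp genes and -0.01 for all genes, and 19 of 24 Ube2 genes lay above 0. Equal medians of the tested probe sets moved the share of higher calls among all called genes from 55.3% to 45.1%, and all 5 called Ube2 genes were higher there too. With only 2 wild-type arrays these counts moved: the Ube2 count was 2 without the first wild-type polysomal array and 3 without the first knockout polysomal array. It was 9 without the third wild-type total array, which enters only through the shared estimate of spread. The Usp count was 2 without the second wild-type polysomal array and 7 without that total array. The Ube2 median stayed between 0.28 and 0.42 in these 11 fits.

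**Figure D3:**
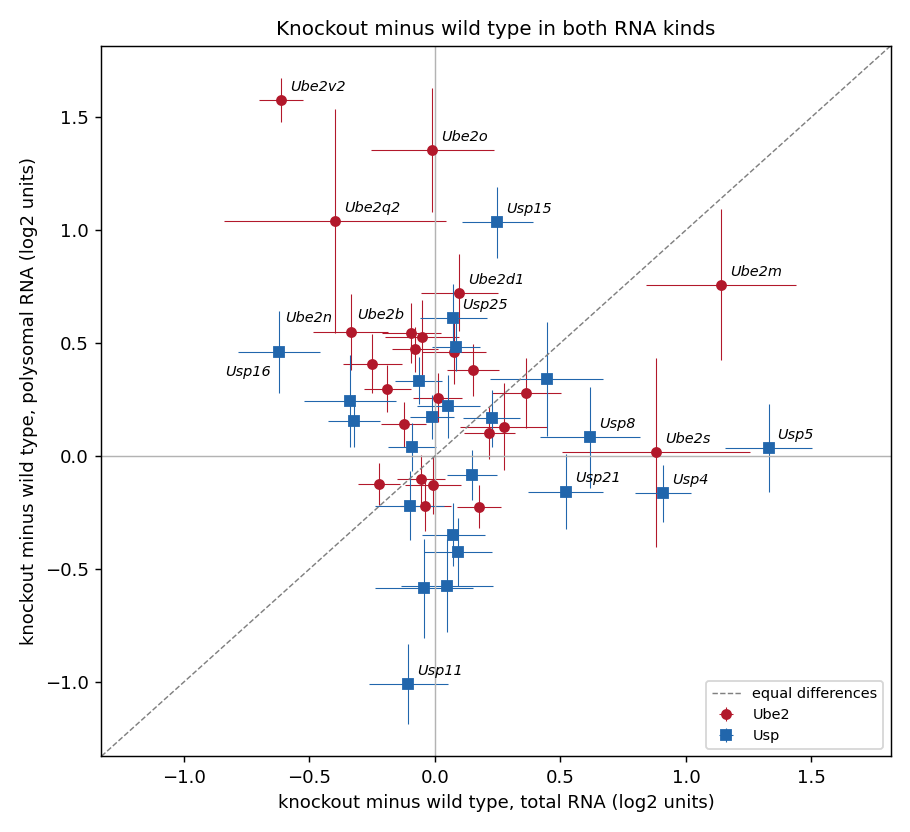
Knockout minus wild type in log2 units is plotted for each tested gene, with total RNA on the horizontal and polysomal RNA on the vertical axis; bars are 1 SE of the limma fit and the dashed line marks equal differences. Ube2v2 lies at -0.61 and 1.58, and Usp5 at 1.33 and 0.04.

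Ube2v2 had the largest rise of the 47 tested members in this comparison. It read 4.18 and 4.32 on wild-type polysomal arrays and 5.90, 5.77 and 5.79 on knockout ones, a rise of 1.58 (SE 0.10, n = 2 and 3, limma adjusted p = 1.7e-04) or 2.98-fold. It passed in all 11 fits without 1 array (highest adjusted p = 0.0014). Its partner Ube2n read 6.78 and 6.72 in wild type and 7.20, 7.39 and 7.30 in knockout. These arrays did not overlap either, but the difference of 0.55 (SE 0.17) had an adjusted p of 0.056.

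Ube2o read 4.34 and 5.00 in wild type and 6.57, 5.49 and 6.01 in knockout. It rose by 1.36 (SE 0.27, limma adjusted p = 0.012), 2.56-fold, and without the first wild-type polysomal array the value was 1.02 and did not pass. It reached the filter of 5 on the 3 knockout polysomal arrays and on no other, so it entered the test through the group where it was high, and its call is given as a description. Of 6 red cell precursor markers 4 were on the arrays and 2 passed the filter. Alas2, an enzyme of haem synthesis, was higher in knockout in both RNA kinds, with polysomal values 1.77 above wild type (SE 0.34, adjusted p = 0.0091) and total values 1.82 above (SE 0.30, adjusted p = 0.0036). Slc4a1, the anion exchanger of red cells, differed by 0.69 in polysomal RNA (adjusted p = 0.40) and by 0.01 in total RNA (adjusted p = 0.99). The group means of Slc4a1 ran from 3.86 to 4.58, under the filter level of 5, and those of Alas2 from 7.95 to 12.18. The mean log2 value of both markers was 7.06 to 7.21 on wild-type and 7.94 to 9.13 on knockout polysomal arrays, and the part of these markers in the Ube2o difference was not tested.

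Ube2d3 read 9.20 and 9.17 in wild type and 9.64, 9.74 and 9.60 in knockout. It rose by 0.47 (SE 0.10, limma adjusted p = 0.014), a call lost without either wild-type array (values 0.49 and 0.46). Ube2d1 read 7.86 and 8.05 in wild type and 8.72, 8.46 and 8.85 in knockout and rose by 0.72 (SE 0.17, adjusted p = 0.023). Ube2b read 10.49 and 10.85 against 11.28, 11.27 and 11.09, a rise of 0.54 (SE 0.13, adjusted p = 0.025). The call on Ube2d1 was lost without either wild-type array or without the first or the third knockout array, and that on Ube2b without the first wild-type (0.365) or the first or second knockout array. Several relatives lay close to the threshold, with adjusted p of 0.053 for Ube2l3 (0.38), 0.056 for Ube2e1 (0.46), 0.060 for Ube2r2 (0.53) and 0.065 for Ube2d2a (0.41). Ube2q2 differed by 1.04 (SE 0.50, adjusted p = 0.19). Within set B, 1 of the letters the labels give to replicate arrays, Ube2q2 differed by 2.26, and within set C by 0.04.

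Among Usp genes, a pair of paralogues passed in opposite directions. Usp15 read 6.93 and 6.48 in wild type and 7.81, 7.58 and 7.83 in knockout, a rise of 1.03 (SE 0.16, limma adjusted p = 0.0034) or 2.05-fold. Usp11 read 6.41 and 6.66 in wild type and 5.29, 5.43 and 5.86 in knockout, a fall of 1.01 (SE 0.18, adjusted p = 0.0062) or 2.01-fold. Both passed in all 11 fits without 1 array, Usp11 with an adjusted p of up to 0.049. Their paralogue Usp4 differed by -0.17 (SE 0.13, adjusted p = 0.43).

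Usp1 read 8.29 and 8.25 in wild type and 8.87, 8.73 and 8.66 in knockout and rose by 0.48 (SE 0.11, limma adjusted p = 0.017). Its call was lost without either wild-type polysomal array (values 0.50 and 0.47). Its message is known to rise in dividing cells. Of 8 markers of dividing cells 7 were on the arrays and 1 passed the filter, Top2a, which was higher in knockout polysomal RNA by 1.66 (adjusted p = 0.014). Top2a read 4.80 to 5.49 on wild-type and 6.55 to 7.12 on knockout polysomal arrays, and its part in the Usp1 difference was not tested. Usp25 read 10.59 and 10.26 against knockout values between 10.98 and 11.12 and rose by 0.61 (SE 0.15, adjusted p = 0.026). Its call was lost without the second wild-type (0.45) or the first or second knockout polysomal array. Its paralogue Usp28 differed by -0.59 (SE 0.22, adjusted p = 0.10). The mitochondrial Usp30 differed by -0.35 (adjusted p = 0.13), Usp46 by 0.33 (adjusted p = 0.058), Usp7 by 0.34 (adjusted p = 0.41), Usp8 by 0.08 (adjusted p = 0.85), Usp14 by 0.22 (adjusted p = 0.34) and Usp39 by -0.08 (adjusted p = 0.67).

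**Figure D4:**
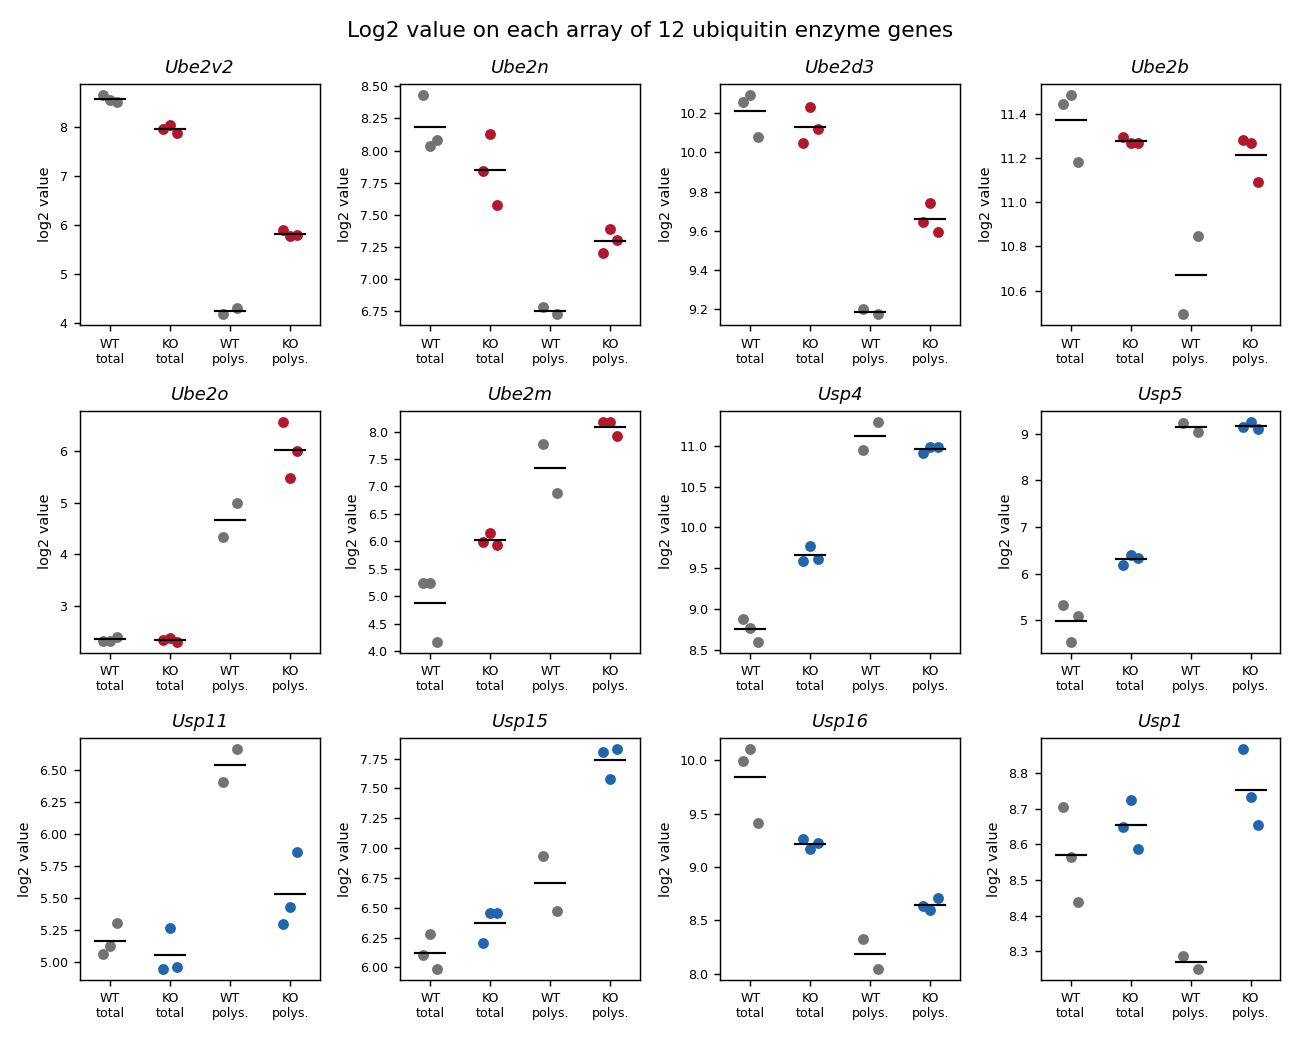
Log2 values on every array are shown for 12 genes, with wild type in grey, knockout Ube2 genes in red and knockout Usp genes in blue. All but Ube2n passed between genotypes in total or polysomal RNA, and Ube2n passed in the interaction described below. Black lines are group means and each panel has its own vertical axis. The polysomal values of Ube2v2 lie at 4.18 and 4.32 in wild type and between 5.77 and 5.90 in knockout.

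The interaction, the knockout difference in polysomal RNA minus that in total RNA, tests whether the genotypes differed by another amount on polysomes than in total RNA. It uses the same arrays as the 4 contrasts above. Of the Ube2 genes, 7 of 24 passed (29.2%, against 22.3% of all genes), all 7 of them above 0, or 6 without Ube2o. Of the Usp genes, 5 of 23 passed (21.7%), 2 above and 3 below 0. Among all genes, 8.06% passed above and 14.2% below 0. The interaction contains the wild-type polysomal minus total difference, so its sign is not independent of that difference. Of genes below 0 there in wild type, 14 of 18 Ube2 genes (77.8%) had an interaction above 0, against 69.6% of all genes. For Usp genes this was 7 of 13. Of genes above 0 there, 5 of 6 Ube2 and 7 of 10 Usp genes had an interaction below 0, against 82.5% of all genes. The median was 0.26 for Ube2 genes, -0.10 for Usp genes and -0.13 for all genes. Quantile normalization gave 4 Usp genes above and 3 below 0, and equal medians of the tested probe sets 5 and 3, while the Ube2 genes that passed were all above 0 under both (6 and 7 genes).

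The interaction of Ube2v2 was 2.19 (SE 0.13, limma adjusted p = 8.4e-05), from a fall of 0.61 in total RNA and a rise of 1.58 in polysomal RNA. It passed in all 11 fits without 1 array, with values from 2.12 to 2.26. Ube2n had an interaction of 0.88 (SE 0.23, adjusted p = 0.024), so both tested genes of the K63 pair passed. Ube2n lost its call without either wild-type polysomal or the second knockout polysomal array (highest adjusted p = 0.072). The other Ube2 genes that passed were Ube2d2a (0.66), Ube2b (0.64), Ube2d3 (0.55) and Ube2g1 (0.49). Ube2o passed as well, but it stood at the floor in total RNA of both genotypes and entered the test only through its knockout polysomal arrays. Its total difference was not measured, so no interaction is read from it.

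The Ube2 count in the interaction was sensitive to single arrays. It was 2 without the first wild-type total or the first wild-type polysomal array, and 3 without the first or the third knockout total array. It was 4 without the second wild-type, the first knockout or the third knockout polysomal array. The calls on Ube2b and Ube2g1 were each lost in 8 of the 11 fits, on Ube2d2a in 7, on Ube2o in 6 and on Ube2d3 in 2, while the sign stayed above 0 in all 11 for each of these 5 genes. The Ube2 median ran from 0.19 to 0.36.

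Usp5 and Usp4 had interactions of -1.29 (SE 0.26, limma adjusted p = 0.010) and -1.07 (SE 0.17, adjusted p = 0.0049). Their higher total levels in knockout, by 1.33 and 0.91, stood beside polysomal differences of 0.04 and -0.17. Usp11 had an interaction of -0.90 (SE 0.24, adjusted p = 0.026), Usp15 of 0.79 (SE 0.21, adjusted p = 0.028) and Usp16 of 1.08 (SE 0.24, adjusted p = 0.016). Usp5 and Usp4 passed in all 11 fits without 1 array, Usp16 in 10, Usp11 in 7 and Usp15 in 5. The Usp count was 3 without the first wild-type total array, 9 without the third and 2 without the second wild-type polysomal array. A polysomal value above 0 together with a total value below 0 was seen in 10 of 24 Ube2 genes (41.7%), 6 of 23 Usp genes (26.1%) and 19.7% of all genes.

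The untested members lay near the floor. Ube2c, the chain-starting E2 of the anaphase-promoting complex, read 2.50 to 3.10 on the 11 arrays, and Ube2u read 2.65 to 3.07. The 14 untested Usp genes, among them Usp12, Usp13, Usp22 and Usp9x, read 1.67 to 5.08. Usp38 was just outside the filter, at 4.19 to 5.08 with 1 array at 5 or above, while Ube2o and Ube2t were just inside it with 3. A low value can come from probes that bind poorly, so it does not show that these messages were absent.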

How the data were processed

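The deposited values are log2 expression values of 11 Affymetrix arrays, made with GCRMA per the submitters' processing notes, with no version stated there. Array medians lay between 4.96 and 5.04. Probe set names were matched through RefSeq (GRCm38.p6, used for names and promoters): 15228 of 26180 probe sets matched 1 gene each and 10952 matched none, and each gene took its probe set with the highest mean. Groups follow the labelled genotype and RNA kind.

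Probe sets at log2 of at least 5 on at least 2 arrays (13802) were fitted with limma 3.58.1 in R 4.3.3 (lmFit, eBayes, 1 mean per group over all 11 arrays, 7 residual degrees of freedom). The 5 contrasts were two-sided, with Benjamini-Hochberg adjustment over all tested probe sets and a threshold of 0.05. Errors are the standard errors (SE) of that fit. The fit was tested on simulated data. Alternatives changed the filter, moderation, scaling, set-letter block, arrays fitted, threshold and arrays left out.

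Members, lists, motifs and tests were chosen with earlier results of these data known. Every tested member could be named, by role; 1 untested member is counted but not reported here. Values on each array went to up to 6 members per family and direction with the largest difference among those that passed without overlap. The interaction had no overlap rule. Polysomal arrays of Ube2n were also given in the genotype comparison, where it did not pass. A planned description of protein length was not made, as no protein table was used here. Python 3.11.15 with matplotlib 3.10.9 drew the figures.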

Additional observations from a re-analysis of the deposited data

Results flagged for a closer look

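For 12 members the knockout difference in polysomal RNA differed from that in total RNA by the test of that difference itself (limma, adjusted p below 0.05). Among Ube2 genes the values, polysomal minus total difference in log2 units, were 2.19 for Ube2v2, 1.37 for Ube2o, 0.884 for Ube2n, 0.657 for Ube2d2a, 0.637 for Ube2b, 0.55 for Ube2d3 and 0.488 for Ube2g1. The value of Ube2o rests on total levels at the floor in both genotypes, and it reached the filter on knockout polysomal arrays alone, so no difference in its response is read from it. Among Usp genes they were 1.08 for Usp16, 0.785 for Usp15, -0.903 for Usp11, -1.07 for Usp4 and -1.29 for Usp5. Groups of 3 or fewer arrays were too small to look for single arrays far from the others.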

How the results depend on the processing

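No called gene changed direction under any alternative run, while some medians near 0 changed sign. Member calls gave 877 results on the same side of the threshold and 99 that lost their call under alternatives other than leaving out an array, and 886 and 104 under leaving out each array in turn. Counts below are of genes that passed, and the cause of each change was not tested unless the alternative's own construction shows it. In total RNA the Ube2 count of 2 was 4 with no filter, 1 with the compared groups fitted alone and 1 at a threshold of 0.01, and the Usp count of 4 was 12, 2 and 2. With no filter the direction of the total RNA calls turned for the most part to lower: 1 Ube2 gene was higher and 3 lower, 3 Usp genes were higher and 9 lower, and of all called genes 37% were higher, against 74.3% with the filter. With no filter the Usp median was -0.0429 in total RNA, 0.0339 in the interaction and -0.0446 in knockout polysomal minus total RNA, and the Ube2 median there -0.144. In polysomal RNA the threshold of 0.01 left 1 Ube2 and 2 Usp genes, and the groups fitted alone left 2 Usp genes. In the interaction that threshold left 1 gene of each family, and no filter gave 3 Usp genes. In wild-type polysomal minus total RNA, no filter gave 26 Usp genes, 8 higher and 18 lower. The floor was also higher on wild-type total arrays (2.43 to 2.49) than on knockout total (2.34 to 2.39) and wild-type polysomal arrays (2.33 to 2.35). Its part in the calls made with no filter was not tested.

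Scaling moved all genes together: the median of wild-type polysomal minus total RNA over all genes was 0.223, and 0.0593 after quantile normalization and 0.109 with equal medians of the tested probe sets, an alternative chosen after seeing the data. The Ube2 median there was -0.568 and -0.528, and the Usp median -0.218 after quantile normalization. Equal medians of the tested probe sets gave 4 Ube2 genes in total RNA (1 higher, 3 lower) and 8 Usp genes in the interaction (5 above and 3 below 0).

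Whether the set letters pair the arrays could not be decided. Deviations from the group means correlated at -0.0502 to 0.117 between 6 array pairs of the same letter and RNA kind. Each of these pairs joined a wild-type and a knockout array. Across RNA kinds, 9 pairs of the same letter ran from -0.175 to 0.322 and 21 pairs of different letters from -0.211 to 0.3. Deviations from the mean of so few arrays constrain one another, so these values did not exclude pairing. A replicate block for the letter within RNA kind left 2 Ube2 and 2 Usp genes in polysomal RNA and 2 Ube2 genes in the interaction, and a block across all arrays left 1 Ube2 gene there. The block within RNA kind gave 11 Ube2 genes and a Usp median of 0.202 in wild-type polysomal minus total RNA, and 7 Ube2 genes with a median of -0.102 in knockout.

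Leaving out each array in turn gave 1 to 2 Ube2 and 2 to 6 Usp genes in total RNA, 2 to 9 and 2 to 7 in polysomal RNA, and 2 to 9 of either family in the interaction. Their medians ran from -0.0512 to 0.00585 and 0.0178 to 0.11, from 0.279 to 0.424 and 0.0454 to 0.109, and from 0.188 to 0.357 and -0.175 to 0.0357. For wild-type polysomal minus total RNA there were 15 to 18 Ube2 and 12 to 16 Usp genes, with medians from -0.527 to -0.32 and -0.113 to -0.0177. For knockout there were 11 to 13 and 16 to 18, with medians from -0.365 to -0.17 and 0.0416 to 0.148. The mean of distinct probe sets and the set without Usp6nl were not run, since each member had 1 distinct probe set and Usp6nl had none. With 2 wild-type polysomal arrays, the number of arrays limits the polysomal comparisons.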

Other observations

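The other genes of the pathway were read from lists of E1 enzymes, ligases, other deubiquitinases and cofactors. All 7 E1 enzymes were tested. In knockout total RNA 2 were higher, Uba1, the main ubiquitin E1 (0.50, SE 0.15, limma adjusted p = 0.041), and Sae1, a subunit of the SUMO E1 (0.71, SE 0.16, adjusted p = 0.013). In polysomal RNA 1 was higher, Uba6, the E1 that charges Ube2z (1.0, SE 0.22, adjusted p = 0.016). The interaction of Uba6 was 1.06 (adjusted p = 0.030) and that of Uba3, a subunit of the NEDD8 E1, was 0.95 (adjusted p = 0.036). NEDD8 itself was higher in knockout total RNA (Nedd8, 0.53, SE 0.12, adjusted p = 0.014).

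Of 17 tested genes listed here as deubiquitinases of other families, 8 were lower and 3 higher on wild-type polysomes. The list holds Cops5, among the higher (2.46), and Eif3f, among the lower (-0.67). Yod1, which acts in degradation from the endoplasmic reticulum, was lowest at -2.995 (SE 0.17), and Cyld, which cuts K63 and linear chains, differed by -1.49 (SE 0.10). Both were higher in knockout polysomal RNA, Yod1 by 0.77 (SE 0.17, limma adjusted p = 0.015) and Cyld by 0.41 (SE 0.10, adjusted p = 0.020), with 0 others of this list higher and 0 lower. In total RNA 3 of the 17 were higher and 2 lower, and in the interaction 4 passed above and 1 below 0. Of the Usp cofactors, 3 of 4 were tested: Wdr20, a partner of Usp12 and Usp46, fell by 0.72 in total RNA (SE 0.21, adjusted p = 0.038), Eny2 rose in polysomal RNA, by 0.48 (SE 0.10, adjusted p = 0.012), and Wdr48 differed by 0.11 and -0.15. Among 8 tested cullin ligase genes, Cul5 (0.56) and Cul7 (0.83) were higher in total RNA and Cul4b (1.03) in polysomal RNA, and among 9 HECT ligases Wwp2 (0.53) was higher in total and Ube3a (0.49) in polysomal RNA. Of 6 ubiquitin-like genes 3 were tested, and Sumo3 (0.26) was the other one higher in total RNA. These counts stand beside the shares of all genes in each direction. In knockout total RNA 17.2% were higher and 5.97% lower, and in polysomal RNA 8.36% and 6.77%. In the interaction 8.06% passed above and 14.2% below 0. On wild-type polysomes 44.5% were higher and 27.9% lower.

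Other cell markers also differed between the genotypes, and their part in the results above was not tested. Heart muscle markers had 3 of 5 tested members higher in total RNA and 1 in polysomal RNA, and neutrophil markers 2 of 4 and 1. Among all genes, 17.2% were higher in total and 8.36% in polysomal RNA. The 2 neutrophil markers higher in total RNA were Ltf (1.59) and Lcn2 (1.4), while S100a8 (-0.30) and S100a9 (-0.07) did not pass.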
